A study of Mus musculus with 90 samples.

Results

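Collagens are the triple-helical proteins that make up most of the extracellular matrix, and the mouse genes that encode their chains were followed here across 15 tissues and between estrus and diestrus. Members were taken by name, as every gene whose symbol reads Col, a number, a and a number, which gave 44 of the 20414 genes in the expression table, of which 20265 carried a symbol and 149 did not. RNA was sequenced on the BGISEQ-500 platform from wild-type female C57BL/6 mice aged 10 weeks by the labels (the study's methods give the substrain C57BL/6J and another age). The phase of each mouse was read from vaginal secretion stained with methylene blue, and the study also measured serum estrogen and progesterone to help set it. There were 3 libraries in estrus and 3 in diestrus from each of uterus (womb in the labels), ovary, vein, aorta, spleen, white adipose tissue (WAT), brown adipose tissue (BAT), stomach, duodenum, heart, muscle, liver, kidney, hypothalamus and cerebrum, 90 in all. The study's methods describe 3 mice a phase as the biological replicates that gave all the tissues, but no label ties a library to a mouse, so libraries of different tissues were treated as separate. Levels were read as FPKM, fragments scaled for transcript length and library size, so that genes of different length can be set side by side within a library. The table names no unit, the library sums ran from 353706 to 623534, and a TPM table with genes left out, which is also scaled for length, could look alike.

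Each collagen molecule winds 3 chains, of 1 gene or of several, into a triple helix. Fibrillar collagens assemble into the banded fibres of tendon, skin, vessel walls and organ stroma, and type IV collagens into the sheet-like network of basement membranes, under epithelia and around capillaries, muscle fibres and fat cells. The other classes link these assemblies to each other or to cells: the beaded filaments of type VI, the anchoring fibrils of type VII below squamous epithelium, the fibril-associated collagens with interrupted triple helices (FACIT), the multiplexins XV and XVIII at the basement membrane zone, and collagens that span the plasma membrane. Sorted by protein family, the members were 11 fibrillar, 6 type IV, 2 multiplexin, 1 anchoring fibril, 6 beaded filament, 3 short-chain network, 9 FACIT, 4 transmembrane and 2 other genes.

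The type IV genes lie head to head in pairs, transcribed away from each other, and the windows around the starts of 4 of them are shown because the levels of their chains are compared further on. Sequences are from RefSeq on GRCm38.p6, 250 bases before to 50 after the annotated start, 5' to 3' on the strand of the gene. For Col4a1 (gene ID 12826, minus strand, chr8:11312777-11313076) and Col4a2 (gene ID 12827, plus strand, chr8:11312555-11312854) the capitals mark the 78 bases that both windows cover, read on opposite strands, with annotated starts 21 bases apart.
Col4a1: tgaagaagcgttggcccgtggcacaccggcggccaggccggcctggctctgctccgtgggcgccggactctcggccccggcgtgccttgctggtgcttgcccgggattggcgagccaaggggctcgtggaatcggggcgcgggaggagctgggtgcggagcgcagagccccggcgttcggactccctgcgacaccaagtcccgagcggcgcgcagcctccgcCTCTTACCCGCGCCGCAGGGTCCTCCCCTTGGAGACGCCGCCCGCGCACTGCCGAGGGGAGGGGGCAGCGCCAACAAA
Col4a2: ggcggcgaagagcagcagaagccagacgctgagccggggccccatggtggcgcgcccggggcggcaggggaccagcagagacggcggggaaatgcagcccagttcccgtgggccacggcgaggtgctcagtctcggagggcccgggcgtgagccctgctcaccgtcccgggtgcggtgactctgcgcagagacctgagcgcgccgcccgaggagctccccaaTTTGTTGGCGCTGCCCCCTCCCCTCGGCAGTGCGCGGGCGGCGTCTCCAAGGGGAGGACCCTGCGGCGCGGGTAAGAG
For Col4a5 (gene ID 12830, plus strand, chrX:141475169-141475468) and Col4a6 (gene ID 94216, minus strand, chrX:141474027-141474326) the annotated starts are 1343 bases apart and the windows do not meet. The capitals there mark the letters CCAAT on either strand, and likewise those of GGGCGG.
Col4a5: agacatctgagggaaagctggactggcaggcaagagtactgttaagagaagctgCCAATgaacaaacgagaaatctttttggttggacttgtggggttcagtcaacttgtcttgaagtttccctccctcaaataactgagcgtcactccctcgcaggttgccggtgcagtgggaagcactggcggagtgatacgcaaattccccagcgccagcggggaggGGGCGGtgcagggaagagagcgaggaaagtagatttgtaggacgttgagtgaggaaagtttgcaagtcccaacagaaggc
Col4a6: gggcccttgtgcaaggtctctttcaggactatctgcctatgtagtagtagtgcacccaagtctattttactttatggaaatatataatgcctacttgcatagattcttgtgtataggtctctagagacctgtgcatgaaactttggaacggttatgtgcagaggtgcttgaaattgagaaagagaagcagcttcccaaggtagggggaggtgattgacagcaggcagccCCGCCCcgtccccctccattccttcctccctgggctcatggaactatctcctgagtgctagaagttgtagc
Of the 44 collagens, 35 had such a window, 38 windows in all, and 9 had none. GGGCGG, searched on both strands, was in 23 of the 38 collagen windows, or 60.5%, and in 35.7% of all 32851 windows of this length. CCAAT was in 34.2% of the collagen windows and 37.4% of all windows, and TATAAA in 13.2% and 13.6%. These are matches of letters and not binding sites.

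Each tissue label was set beside marker genes of 28 cell types and states. Markers of cardiomyocytes, brown and white adipocytes, hepatocytes, kidney tubule, granulosa cells, gastric epithelium, enterocytes, skeletal muscle fibres, uterus, neurons and B and T cells were each highest in the tissue that the name implies, with neurons highest in cerebrum. The aorta libraries also held brown adipocyte, cardiomyocyte and white adipocyte markers, at mean sums of 3153, 1860 and 1226 FPKM. The vein libraries held white adipocyte, brown adipocyte and neuron markers, at 1363, 858 and 256. Several libraries stood apart. In aorta estrus 1 the 4 smooth muscle markers summed to 15590 FPKM against 1551 to 2376 in the other 5 aorta libraries, and the 2 brown adipocyte markers to 309 against 2484 to 4760. In WAT estrus 1 the smooth muscle sum was 2409 against 88.8 to 244. In uterus estrus 3 the 4 squamous epithelium markers summed to 754 against at most 34.0 in the other uterus libraries. In duodenum estrus 1 the 3 gastric markers summed to 36726 against at most 22.6, and in hypothalamus estrus 2 the 3 pituitary markers to 31517 against at most 391. In spleen estrus 2 the 3 pancreatic acinus markers summed to 1233 FPKM against at most 10.6 in the other spleen libraries. In vein estrus 3 the 2 B cell markers summed to 117 FPKM against at most 3.92 in the other vein libraries. Its 2 T cell markers summed to 39.7 against at most 3.36. In BAT diestrus 3 the 4 skeletal muscle fibre markers summed to 3846 FPKM against at most 937 in the other BAT libraries. BAT estrus 3 had 12048 genes at 0, against 2404 to 4820 in the other libraries. In whole tissue, fewer cells of a type and less RNA per cell cannot be told apart.

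Of the 44 collagens, 42 reached a mean of at least 1 FPKM in some tissue. The exceptions were Col9a1 and Col10a1, chains of cartilage whose highest tissue means were 0.213 and 0.367 FPKM. A set of 7 reached it in all 15 tissues, namely Col1a1 and Col1a2 (type I), Col4a1 and Col4a2 (type IV), Col6a1 and Col6a2 (type VI) and Col18a1. The ovary had 34 collagens at this level, the uterus 30, the vein 28 and the liver 15, the fewest.

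**Figure D1:**
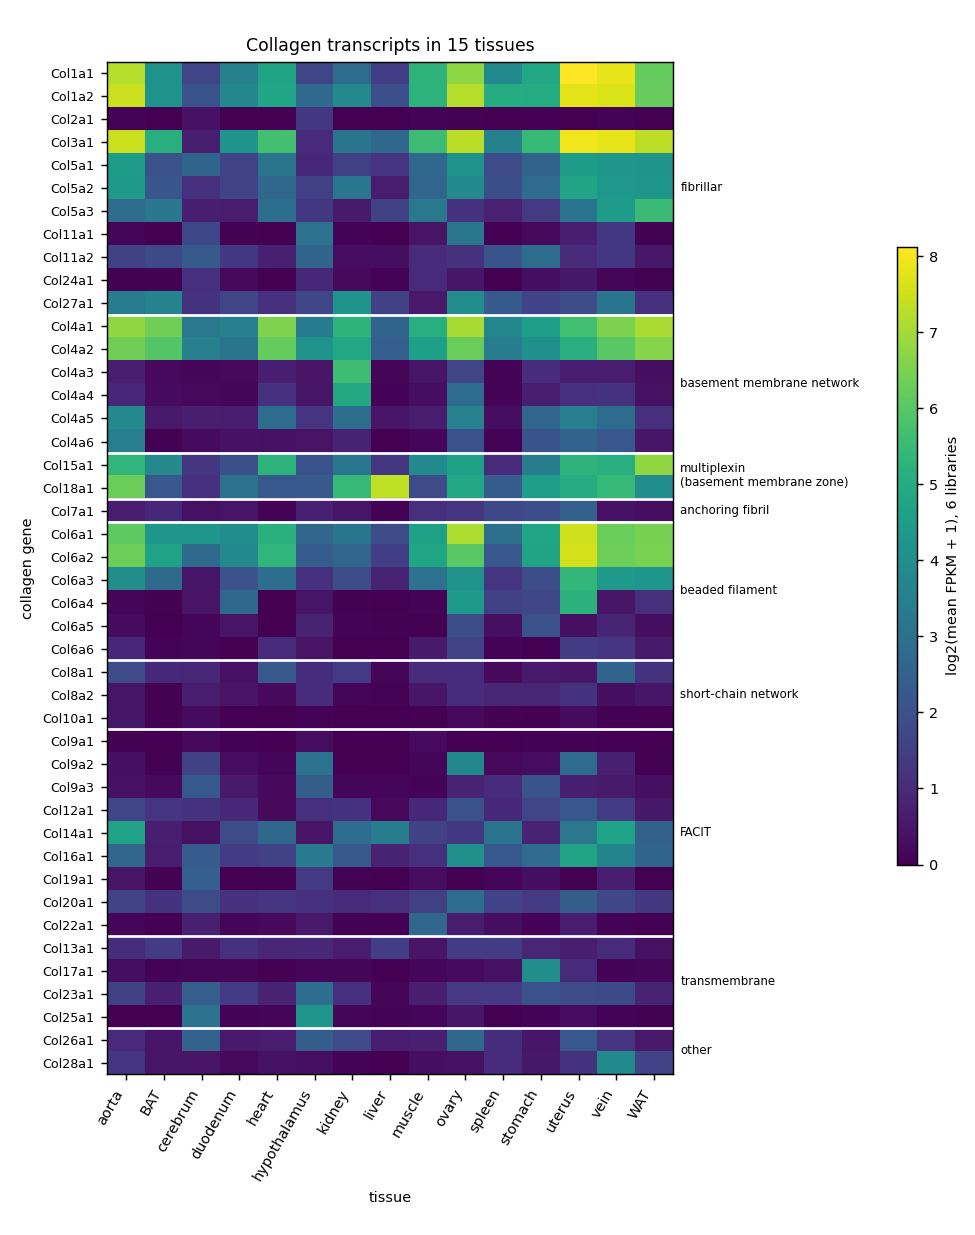
Level of the 44 collagens (rows, by class) in 15 tissues (columns), as log2 of the mean FPKM of 6 libraries plus 1. Type I and III chains are high in uterus, vein, aorta and ovary, and Col18a1 stands alone in liver.

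The fibrillar class was led by Col3a1, the single chain of type III, with a mean of 78.5 FPKM over the 90 libraries, and by Col1a2, a chain of type I, with 66.7. Col1a1, the other chain of type I, averaged 278 ± 191 FPKM (SD, n = 6 libraries, as for the values that follow) in uterus, 223 ± 112 in vein, 148 ± 72.8 in aorta and 1.84 ± 0.432 in liver. Its uterus libraries ran from 56.59 to 581.66 and its vein libraries from 97.68 to 427.13, so that the tissues at the top of the order overlapped. Col3a1 reached 244 ± 199 in uterus and 225 ± 112 in vein, and its lowest tissues were cerebrum with 0.597 ± 0.245 and hypothalamus with 0.983 ± 0.372. In WAT the type I level rested in part on estrus 1, where Col1a1 was 274.46 FPKM against 24.12 to 42.32 in the other 5 libraries.

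Among the type V chains, which sit inside type I fibrils, Col5a1 was highest in aorta at 21.2 ± 15.2 and uterus at 21.2 ± 14.3 FPKM, and Col5a2 in uterus at 26.0 ± 22.8. Col5a3 had another order, with 45.8 ± 15.2 in WAT and 20.9 ± 8.03 in vein. The chains best known from cartilage were low. Col2a1, the chain of type II, reached 1.48 ± 0.191 in hypothalamus and a mean of 1 FPKM nowhere else. Col11a1 was 8.17 ± 1.51 in ovary and 7.13 ± 1.25 in hypothalamus, ranges that overlap, and Col11a2 was highest in stomach with 6.30 ± 5.80. Beside the ovary value, the 6 chondrocyte markers summed to 87.3 FPKM in ovary and 7.94 in cerebrum, the next tissue. In ovary only 1 of the 6 had a mean of at least 1 FPKM, so the sum rested on 1 gene. The part of such cells was not tested. Col27a1 was 17.3 ± 4.24 in kidney and 14.8 ± 4.92 in ovary, and Col24a1 reached 1.18 ± 0.539 in cerebrum.

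The type IV network is built in nearly every basement membrane from Col4a1 and Col4a2. Col4a1 was highest in WAT, with 136 ± 47.9 FPKM, and in ovary, with 134 ± 18.3, tissues whose ranges overlap. The liver, whose sinusoids lack a continuous basement membrane, had the least, 5.16 ± 0.825. Col4a2 followed it, with 99.2 ± 28.8 in WAT and 4.35 ± 0.924 in liver.

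Col4a3 (gene ID 12828) and Col4a4 (gene ID 12829) form the mature network of the glomerulus together with Col4a5, and both were highest in kidney. Kidney Col4a3 was 65.38, 48.89 and 40.79 FPKM in estrus against 43.22, 47.55 and 39.13 in diestrus, while the next tissue, the ovary, ran from 2.01 to 2.56. The kidney mean of 47.5 was 21.5 times that of the ovary, with no overlap of libraries. Col4a4 was 29.3 ± 3.71 in kidney and 6.32 ± 0.369 in ovary, a ratio of 4.63. Col4a5 and Col4a6 were highest in aorta by their means, 13.3 ± 16.4 and 10.1 ± 11.9 FPKM, and both rested on estrus 1, with 46.72 and 34.38 against 5.57 to 9.06 and 4.0 to 7.01 in the other 5. Next came ovary for Col4a5, with 8.52 to 13.11 over its libraries, and uterus for Col4a6, with 4.84 ± 3.37.

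The multiplexins are cleaved to release small fragments, endostatin in the case of type XVIII. Liver Col18a1 (gene ID 12822) was 180.97, 168.83 and 179.05 FPKM in estrus against 156.37, 151.93 and 143.94 in diestrus. It was by far the most abundant collagen there, ahead of Col14a1 at 9.92 and Col3a1 at 5.54, and type IV and multiplexin genes made up 82.7% of the collagen FPKM of liver. Kidney, at 42.8 ± 5.85, and vein, at 42.8 ± 17.4, lay below liver without overlap. The aorta mean of 77.7 held 245.91 in estrus 1 and 37.24 to 59.78 in the other 5 libraries. Col15a1 was highest in WAT at 109 ± 32.5 FPKM, and the next tissue was aorta at 39.3 ± 24.9. Over the 15 tissue means the multiplexins had a Spearman rho of 0.243.

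**Figure D2:**
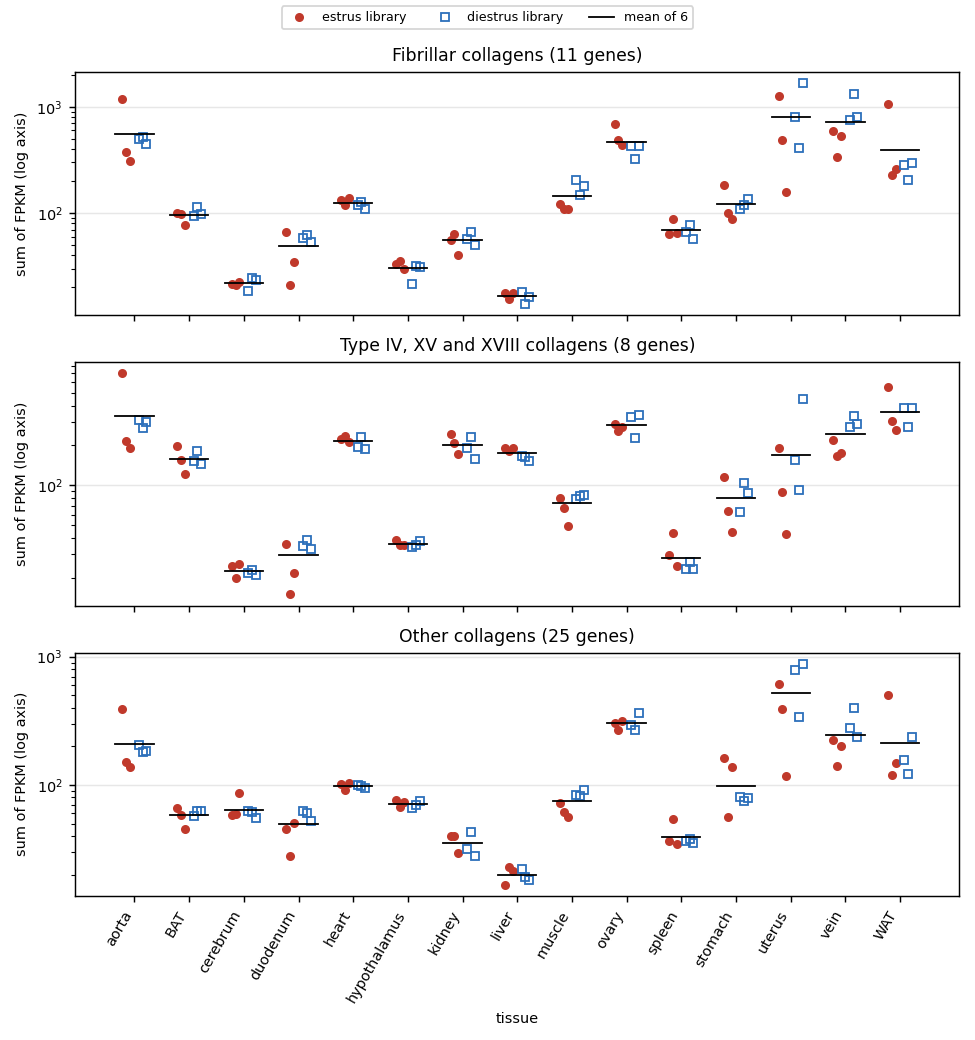
Summed FPKM (log axis) of the 11 fibrillar, the 8 type IV and multiplexin, and the remaining 25 collagens in each of the 90 libraries, with estrus and diestrus marked apart. Aorta estrus 1 and WAT estrus 1 lie above the other libraries of their tissue, at 1192 and 1066 FPKM for the fibrillar sum.

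Type VI forms beaded filaments around cells. Col6a1 and Col6a2 averaged 47.7 and 43.8 FPKM over all libraries and were highest in uterus, at 184 ± 109 and 193 ± 129. Their lowest uterus library was estrus 3, with 31.44 and 18.70. Col6a3 reached 40.2 ± 26.3 in uterus. Col6a4 was 36.1 ± 23.0 in uterus, 20.2 ± 3.34 in ovary and 5.69 ± 1.72 in duodenum, and uterus estrus 3 had 3.47 against 26.31 to 72.14 in the other 5. Col6a5 was highest in stomach at 3.05 ± 1.01 and Col6a6 in ovary at 2.17 ± 0.650.

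Col7a1, the anchoring fibril chain, was 4.68 ± 2.47 FPKM in uterus and 2.76 ± 2.31 in stomach. Of the short-chain collagens, Col8a1, known from vessel walls, was 5.11 ± 1.42 in vein and 3.86 ± 0.535 in heart, and Col8a2 reached 1.29 ± 1.14 in uterus.

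The FACIT class was led by Col14a1, with 25.1 ± 8.84 FPKM in vein and 24.7 ± 7.49 in aorta, values that overlap, and by Col16a1, with 25.7 ± 11.9 in uterus and 15.9 ± 2.14 in ovary. Muscle Col22a1 (gene ID 69700), a collagen of the junction between muscle and tendon, was 7.03, 3.94 and 8.82 FPKM in estrus against 5.23, 4.42 and 2.87 in diestrus. The next tissue mean was 8.55 times lower, 0.630 in cerebrum. Col9a2 was 13.0 ± 3.16 in ovary and 7.26 ± 0.741 in hypothalamus, and Col9a3 4.31 ± 0.342 in hypothalamus. Col12a1 was highest in uterus at 3.64 ± 2.64, Col19a1 in cerebrum at 4.40 ± 0.638 and Col20a1 in ovary at 6.27 ± 1.58.

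Of the transmembrane collagens, Col25a1 (gene ID 77018), a neuronal collagen also known as CLAC-P, was the most abundant collagen of the hypothalamus. Hypothalamic Col25a1 was 17.22, 18.21 and 18.58 FPKM in estrus against 19.54, 19.27 and 20.06 in diestrus, and cerebrum ran from 5.59 to 10.96. No other tissue reached a mean of 1 FPKM. Col23a1 was 6.63 ± 1.38 in hypothalamus and 4.38 ± 1.78 in cerebrum, and Col13a1 was 1.75 ± 0.705 in liver, 1.75 ± 0.512 in ovary and 1.74 ± 1.40 in BAT, with overlapping ranges.

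Col17a1 (gene ID 12821), the hemidesmosomal collagen of stratified epithelium, reached 1 FPKM as a mean in stomach alone, where it was 24.78, 0.46 and 56.15 FPKM in estrus against 8.25, 1.46 and 0.02 in diestrus. The 4 squamous epithelium markers, all with a mean of at least 1 FPKM there, summed in the same order to 4232, 96.9, 7342, 993, 442 and 1.87 FPKM. Both were highest in estrus 3 and lowest in diestrus 3, where Krt5 was 845.40 and 0.17. Vein Col28a1 (gene ID 213945), a collagen of peripheral nerve, was 14.20, 8.73 and 10.88 FPKM in estrus against 13.26, 16.86 and 17.24 in diestrus, a mean 6.52 times that of WAT, the next tissue. The 4 Schwann cell markers summed to 286 to 756 FPKM in the vein libraries. In aorta they summed to 13.5 to 363 FPKM, where Col28a1 was 0.59 to 2.21. Their mean sums were highest in hypothalamus, at 2219, and cerebrum, at 1522.5, where Col28a1 did not reach a mean of 1 FPKM. The part of these cells in the levels of Col17a1 and Col28a1 was not tested. Col26a1 was 5.66 ± 0.583 in ovary and 4.94 ± 0.453 in cerebrum.

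**Figure D3:**
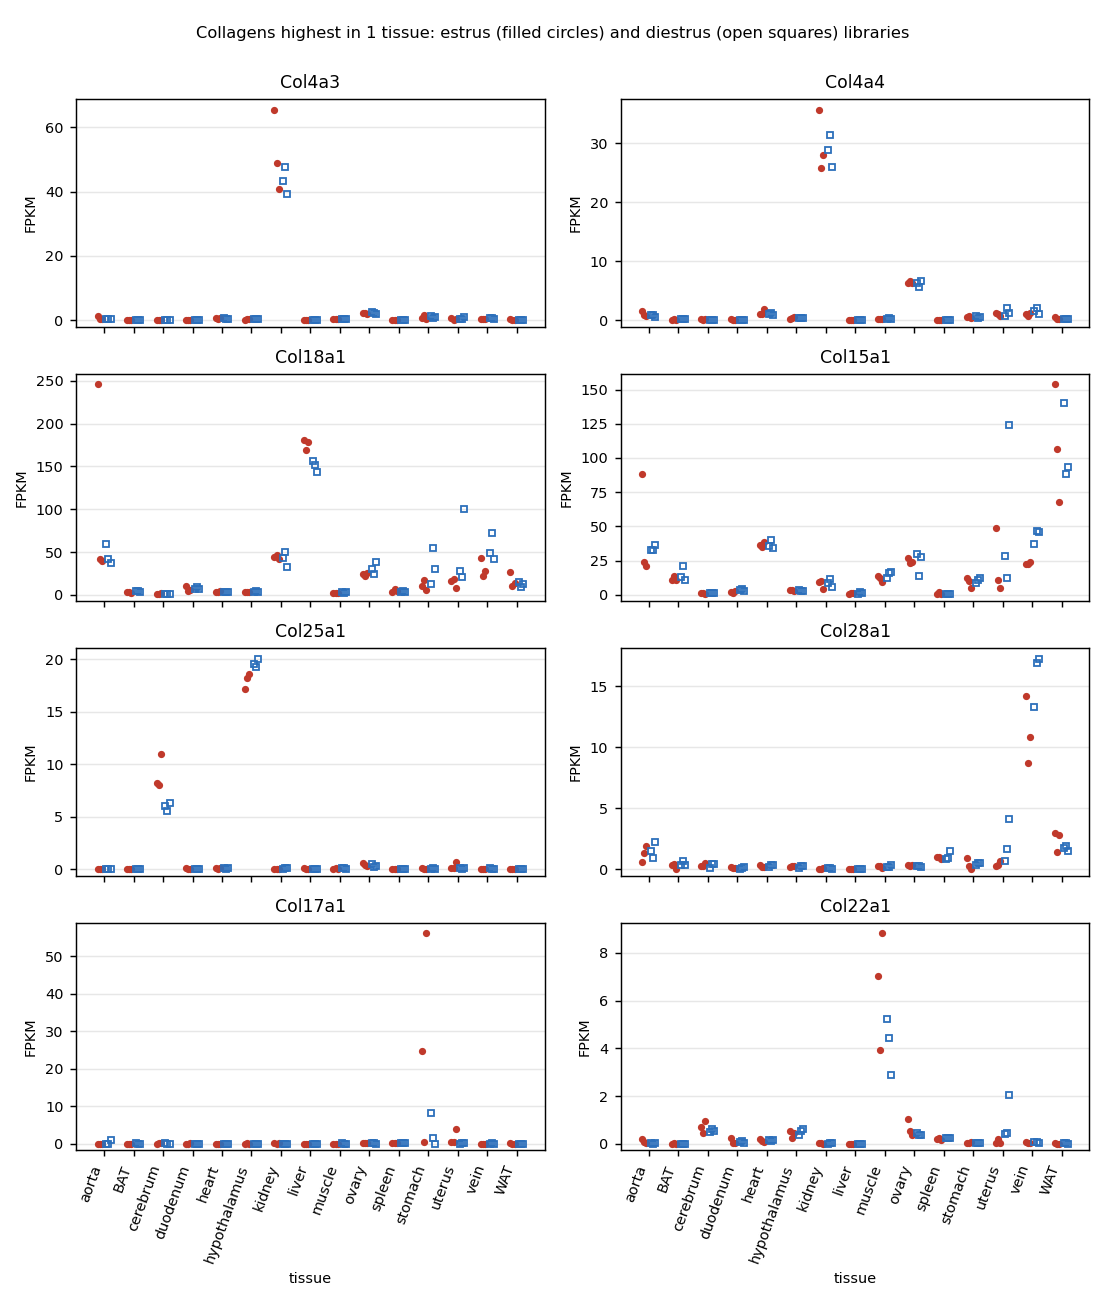
FPKM by library of collagens with a narrow tissue range, with estrus and diestrus marked apart. Col4a3 is high in kidney, Col17a1 in some stomach libraries, Col22a1 in muscle and Col28a1 in vein.

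The collagens that led each tissue differed accordingly. Type I or type III chains came first in aorta (Col1a2, 176 FPKM), vein (Col3a1, 225), ovary (Col3a1, 154), uterus (Col1a1, 278), WAT (Col3a1, 159), muscle (Col3a1, 46.9), stomach (Col3a1, 42.7), duodenum (Col3a1, 17.5) and spleen (Col1a2, 31.6). Col4a1 led in heart, at 93.1 ± 10.0, before Col4a2 at 73.0 and Col3a1 at 51.3, and in BAT, at 81.0, before 60.2 and 34.1 for the same genes. In kidney Col4a3 was followed by Col18a1 and Col4a1, and type IV and multiplexin genes made up 68.8% of the collagen FPKM. Cerebrum was led by Col6a1 at 18.4, before Col4a2 at 10.5 and Col4a1 at 8.45, and hypothalamus by Col25a1 at 18.8, before Col4a2 at 17.1 and Col4a1 at 9.43. The fibrillar share of collagen FPKM ran from 7.84% in liver to 59.6% in vein.

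Chains that share a molecule were compared as ratios of FPKM within each library, for libraries with both chains at 1 FPKM or more. Col4a1 over Col4a2, the genes with overlapping start windows printed above, was 1.29 ± 0.289 over 90 libraries and above 1 as a mean in 13 tissues, with the highest mean in ovary at 1.73 ± 0.132. It was lower in the brain, at 0.808 ± 0.0603 in cerebrum and 0.553 ± 0.0225 in hypothalamus. All 12 brain libraries lay between 0.516 and 0.892, and the lowest library of any other tissue was a liver at 0.945.

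Col1a1 over Col1a2, which join in type I as 2 chains to 1, was 0.819 ± 0.281, with tissue means from 0.402 in hypothalamus to 1.28 in uterus. Col6a1 over Col6a2 was 3.04 ± 0.384 in cerebrum, 2.14 ± 0.270 in ovary and 0.734 ± 0.141 in BAT. Col4a3 over Col4a4 was 1.62 ± 0.193 in kidney and 0.352 ± 0.0422 in ovary, with no overlap between the 6 libraries of each. Across tissues the order of the means was compared for some pairs of chains. Among chains that share a molecule, Spearman's rho was 0.971 for Col1a1 and Col1a2, 0.957 for Col4a1 and Col4a2, 0.932 for Col4a3 and Col4a4, 0.861 for Col4a5 and Col4a6, 0.814 for Col5a1 and Col5a2, 0.964 for Col6a1 and Col6a2 and 0.929 for Col6a2 and Col6a3. Among chains of different molecules it was 0.968 for Col1a1 and Col3a1, as high as for partners, and 0.771 for Col1a1 and Col4a1. These coefficients describe 15 tissue means taken from the same libraries.

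**Figure D4:**
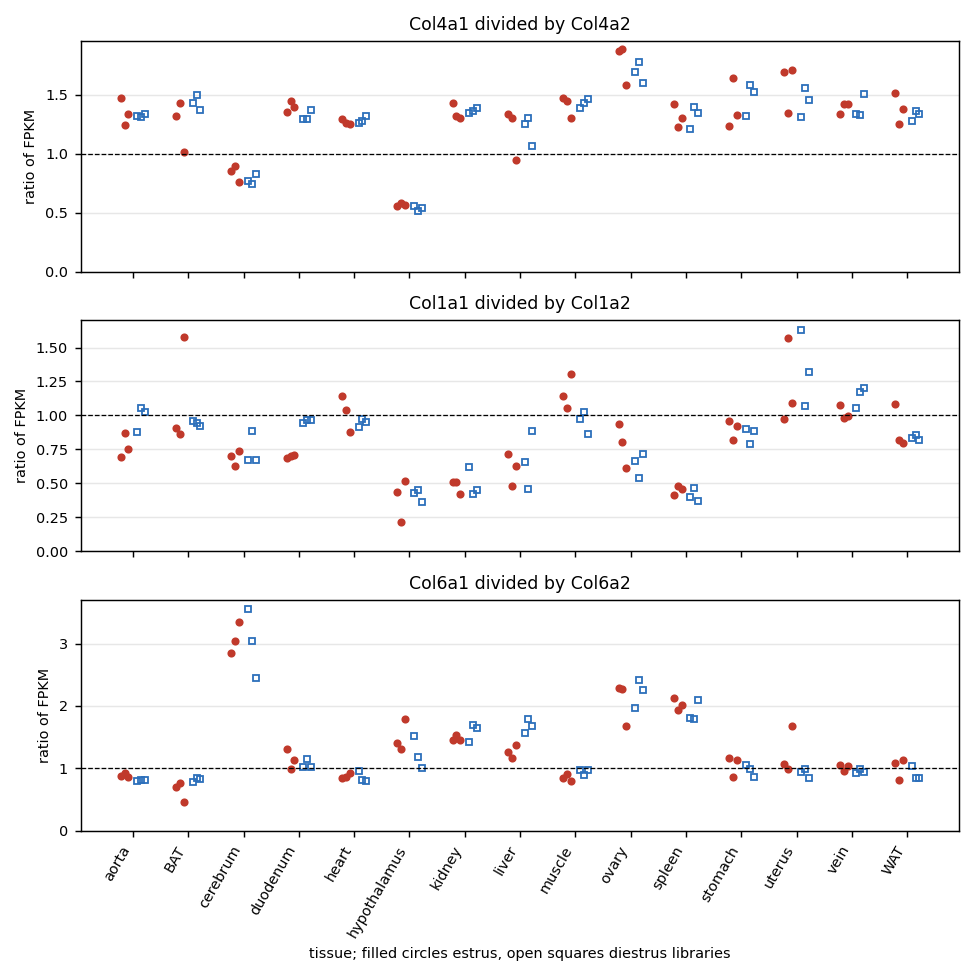
Ratio of FPKM of chains that share a molecule in each library, by tissue, with estrus and diestrus marked apart. The Col4a1 to Col4a2 ratio is below 1 in all cerebrum and hypothalamus libraries, and the Col6a1 to Col6a2 ratio is highest in cerebrum.

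To ask which collagens set a tissue apart, each tissue was compared with the mean of the other 14 by limma on log2(FPKM + 1). A call needed an adjusted p of at most 0.05 and a log2 difference of at least 1. The 42 collagens tested had a mean of at least 1 FPKM in some tissue, and Col2a1, Col17a1 and Col22a1, which passed through 1 tissue, had to be higher there. The 15 comparisons share libraries. The fit gives each gene 1 spread for all tissues, so its SEs do not show the spread within the tissue named. The ovary had the most collagens higher, 24, where 19.9% of all 17289 genes were higher, and 1 lower, where 5.15% were. The vein had 20 higher (13% of all genes) and 0 lower (2.79%), and the uterus 15 (15.4%) and 0 (5.67%). The aorta had 16 higher (9.03%) and 1 lower (4.06%), and WAT 11 (7.39%) and 1 (8.62%). The liver had 2 higher (7.51%) and 17 lower (31.7%), and the spleen 0 (21%) and 10 (15.5%).

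In the other tissues the calls went both ways. The cerebrum had 7 collagens higher (19.5%) and 14 lower (16.9%), and the hypothalamus 10 (21.9%) and 12 (13.1%). The kidney had 5 higher (11.6%) and 9 lower (8.72%), the heart 5 (8.72%) and 3 (13.4%), and BAT 3 (7.68%) and 5 (18.4%). The muscle had 2 higher (5.99%) and 5 lower (31.3%), the duodenum 1 (13%) and 10 (15.2%), and the stomach 4 (11.4%) and 1 (10.5%).

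The split depended on the scaling in some tissues, since the median difference of all genes was -0.68 in liver and -0.65 in muscle and moved to -0.18 and -0.16 under quantile normalization. With that normalization the calls were 7 higher and 2 lower for muscle, 5 higher and 3 lower for BAT, 7 higher and 2 lower for heart, 3 higher and 11 lower for liver, 4 higher and 14 lower for cerebrum and 5 higher and 15 lower for hypothalamus. For ovary, whose median of all genes moved from 0.35 to -0.09, they were 16 higher and 2 lower. Aorta and vein also had 16 higher under it, so the ovary no longer had the most. Without uterus estrus 3 the uterus had 20 calls in place of 15.

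The kidney was set apart by its own type IV chains. Col4a3 was higher by a log2 difference of 5.07 ± 0.07 (SE, as for the differences that follow), Col4a4 by 4.22 ± 0.07 and Col27a1 by 2.11 ± 0.13, while Col3a1 was at -2.04 ± 0.24, Col6a2 at -1.95 ± 0.22 and Col1a1 at -1.87 ± 0.25. In liver Col18a1 was higher by 3.85 ± 0.21 and Col14a1 by 1.32 ± 0.22, while Col1a1 was at -3.30 ± 0.25, Col6a2 at -3.17 ± 0.22 and Col1a2 at -3.14 ± 0.24.

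The brain tissues shared high Col25a1 and low type I and type III chains, while the fibrillar Col11a1 and Col11a2 were called higher in both. Hypothalamus had Col25a1 higher by 3.98 ± 0.04, Col11a1 by 2.45 ± 0.08 and Col9a2 by 2.35 ± 0.13, with Col3a1 at -4.21 ± 0.24, Col1a1 at -3.11 ± 0.25 and Col1a2 at -2.33 ± 0.24. Cerebrum had Col25a1 higher by 2.65 ± 0.04, Col19a1 by 2.19 ± 0.07 and Col9a3 by 1.54 ± 0.09, with Col3a1 at -4.54 ± 0.24, Col1a1 at -3.12 ± 0.25 and Col1a2 at -3.10 ± 0.24.

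In uterus, vein and aorta a type I chain was among the 3 largest differences. Uterus had Col6a4 higher by 3.91 ± 0.21, Col1a1 by 3.42 ± 0.25 and Col6a2 by 2.89 ± 0.22. Vein had Col1a1 higher by 3.31 ± 0.25, Col28a1 by 3.27 ± 0.10 and Col3a1 by 2.98 ± 0.24, and aorta had Col1a1 higher by 2.70 ± 0.25, Col14a1 by 2.61 ± 0.22 and Col3a1 by 2.58 ± 0.24, with Col6a4 at -1.13 ± 0.21. Ovary was led instead by Col6a4, at 3.46 ± 0.21, Col9a2, at 3.14 ± 0.13, and Col11a1, at 2.64 ± 0.08, with Col5a3 at -1.09 ± 0.18.

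In WAT Col5a3 was higher by 3.54 ± 0.18, Col15a1 by 3.42 ± 0.23 and Col3a1 by 2.36 ± 0.24, with Col27a1 at -1.19 ± 0.13. BAT had Col27a1 higher by 1.54 ± 0.13, Col4a1 by 1.30 ± 0.18 and Col4a2 by 1.2 ± 0.18, and Col16a1 at -1.87 ± 0.19, Col18a1 at -1.68 ± 0.21 and Col14a1 at -1.65 ± 0.22. The heart had Col15a1 higher by 1.83 ± 0.23, Col4a1 by 1.54 ± 0.18 and Col4a2 by 1.5 ± 0.18, and Col18a1 at -1.65 ± 0.21, Col6a4 at -1.22 ± 0.21 and Col27a1 at -1.15 ± 0.13. Col4a1 and Col4a2 were thus higher in both BAT and heart.

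In muscle Col22a1 was higher by 2.37 ± 0.08 and Col5a3 by 1.13 ± 0.18, with Col18a1 at -2.04 ± 0.21, Col27a1 at -1.74 ± 0.13 and Col16a1 at -1.34 ± 0.19. In stomach Col17a1 was higher by 2.42 ± 0.26, Col6a5 by 1.58 ± 0.07 and Col9a3 by 1.2 ± 0.09, with Col14a1 at -1.62 ± 0.22. The Col9a3 call was lost (0.94) without the libraries numbered 2. The collagen higher in duodenum was Col6a4, by 1.64 ± 0.21, with Col4a2 at -1.84 ± 0.18, Col4a1 at -1.76 ± 0.18 and Col5a3 at -1.70 ± 0.18, and the largest lower differences of spleen were Col15a1 at -2.75 ± 0.23, Col6a2 at -2.43 ± 0.22 and Col6a1 at -1.84 ± 0.22.

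Related tissues were then compared directly, by limma over the 12 libraries of a pair with the phase as a term. A gene entered a pair if its 12 libraries averaged 1 FPKM or more, and 24 of the 75 calls of collagens over the 7 pairs were of genes with a mean under 1 FPKM in 1 of the tissues, which could enter only as higher in the other. Aorta and vein differed in 2 of 28 collagens, both lower in aorta, where 9.12% of all genes were lower and 1.84% higher. Col28a1 was 0.59 to 2.21 FPKM in aorta and 8.73 to 17.24 in vein, a log2 difference of -2.60 ± 0.18, and Col5a3 was at -1.62 ± 0.16. The fat depots differed more. WAT exceeded BAT in 14 of 21 collagens (15.1% of all genes) and was below it in 2 (7.07%). Col15a1 was 68.18 to 153.86 FPKM in WAT and 10.55 to 21.23 in BAT, higher by 2.93 ± 0.22, and Col5a3 and Col5a1 were higher by 2.43 ± 0.34 and 2.11 ± 0.26. Col27a1 went the other way, with 0.81 to 1.68 FPKM in WAT against 9.80 to 15.83 in BAT (-2.55 ± 0.16), as did Col11a2 (-1.26 ± 0.16). Col28a1, Col14a1 and Col16a1 entered through WAT alone and Col11a2 through BAT alone. The filter thus fixed the direction of these 4 of the 16 calls.

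Heart exceeded muscle in 6 of 19 collagens (22.7% of all genes), led by type IV chains: Col4a5 by 2.21 ± 0.09, Col4a2 by 1.63 ± 0.12 and Col4a1 by 1.49 ± 0.13. Col4a5 was 5.48 to 7.36 FPKM in heart and 0.34 to 0.87 in muscle. The 1 collagen lower in heart (5.56%) was Col22a1, at -2.40 ± 0.17. Col4a5 and Col22a1 are the 2 of these 7 calls that entered through 1 tissue, heart and muscle, so their direction was fixed by the filter. Ovary exceeded uterus in 8 of 33 collagens (10.4%), with Col11a1 (2.60 ± 0.23), Col27a1 (2.06 ± 0.19) and Col4a4 (1.77 ± 0.15) first, and was lower in 3 (8.66%), Col5a3 (-1.76 ± 0.35), Col14a1 (-1.57 ± 0.46) and Col7a1 (-1.23 ± 0.33). Col11a1 is among the 3 of these 11 calls that entered through 1 tissue, here ovary, and could only be higher there. Without uterus estrus 3 this pair had 15 calls in place of 11.

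Duodenum was below stomach in 14 of 27 collagens (12% of all genes) and above it in 1 (12.1%), Col14a1 (1.15 ± 0.28). Col4a5 was 0.08 to 0.84 FPKM in duodenum and 2.58 to 11.67 in stomach, a difference of -1.92 ± 0.27, and Col6a5 was at -1.53 ± 0.17. Col17a1 was at -2.49 ± 0.83 with a limma adjusted p of 0.0269, and the call was lost, with adjusted p between 0.0545 and 0.0617, when duodenum estrus 2, duodenum estrus 3, stomach estrus 1 or stomach diestrus 1 was left out. Col4a5, Col6a5 and Col17a1 are among the 7 of these 15 calls that entered through 1 tissue, here stomach, and could only be lower in duodenum.

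Hypothalamus exceeded cerebrum in 5 of 24 collagens (4.73% of all genes), with Col9a2 (1.47 ± 0.10), Col11a1 (1.25 ± 0.11) and Col25a1 (1.25 ± 0.11) first, and was lower in 3 (4.25%), Col5a1 (-1.69 ± 0.19), Col6a1 (-1.58 ± 0.17) and Col19a1 (-1.04 ± 0.09). Col6a1 was 3.81 to 7.60 FPKM in hypothalamus and 13.17 to 26.06 in cerebrum. The Col19a1 difference fell just short of the limit without cerebrum diestrus 2 or without hypothalamus diestrus 1. Col5a1 is the 1 of these 8 calls that entered through 1 tissue, cerebrum, and could only be lower in hypothalamus.

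Kidney exceeded liver in 15 of 22 collagens (35.8% of all genes), with Col4a3 (5.44 ± 0.10), Col4a4 (4.83 ± 0.08) and Col4a1 (2.64 ± 0.14) first, and was lower in 1 (8.28%), Col18a1 (-1.91 ± 0.09). Col4a3 and Col4a4 are among the 7 of these 16 calls that entered through kidney alone and could only be higher there. All genes had a median difference of 0.74 in this pair, and under quantile normalization, which brought it to 0.02, the collagens were 7 higher and 5 lower. That normalization gave 1 higher and 2 lower in aorta against vein, 3 higher and 1 lower in heart against muscle and 3 higher and 4 lower in hypothalamus against cerebrum.

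Between estrus and diestrus the question was which collagens moved with the cycle in each tissue. In 353 tests of a collagen in a tissue, limma called 0, where it called 0.00108% of all 185469 tests of a gene in a tissue. An unadjusted p under 0.05 was found in 49 of the 353, or 13.9%, against 7.84% over all genes. The alternative fits called 12 (array weights, all in stomach) and 14 (1 fit of all 90 libraries: 9 in uterus, 4 in stomach and 1 in aorta). Estrus and diestrus libraries did not overlap in 57 tests, with estrus higher in 11 and lower in 46. In 6 of the 57 (Col13a1 in aorta, Col8a2 in hypothalamus, Col16a1 in muscle, Col11a2 and Col28a1 in uterus, Col6a4 in WAT) the mean of 1 phase was under 1 FPKM, so that the gene entered through the other phase, which fixed its direction. With 3 libraries against 3, an exact permutation test of a single value cannot go below p = 0.1.

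**Figure D5:**
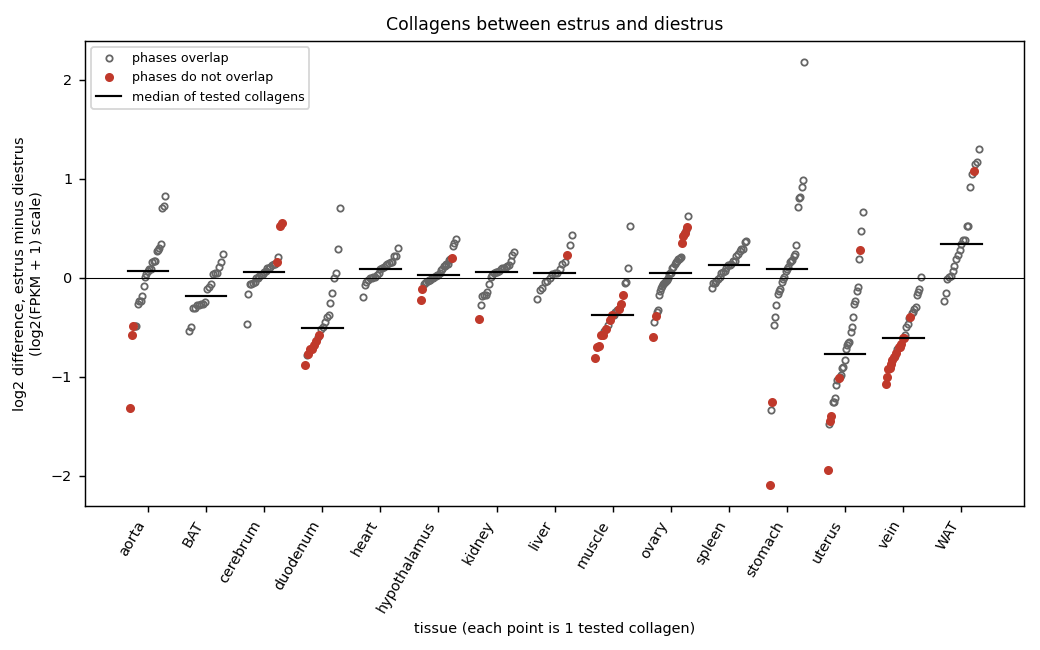
Estrus minus diestrus as a log2 difference of FPKM + 1 for each collagen tested in each tissue, with filled points where the phases do not overlap. Most points of vein, muscle, duodenum and uterus lie below 0, and none was called.

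The vein was the most one-sided tissue. Of the 28 collagens tested there, 27 had a lower estimate in estrus, as had 26 under quantile normalization. The median log2 difference was -0.60, against -0.10 for all genes of the vein. The phases did not overlap in 14, all lower, where 12.9% of all genes were lower without overlap, and 16 had an unadjusted p under 0.05 (12.1% of all genes). Vein Col15a1 was 22.34, 22.50 and 24.07 FPKM in estrus against 36.93, 46.44 and 45.97 in diestrus, a difference of -0.87 ± 0.12 with the lowest limma adjusted p of the collagens there, 0.280. All 3 estrus veins lay below all 3 diestrus veins.

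Vein Col3a1 was 179.78, 98.26 and 156.14 FPKM in estrus against 224.51, 419.09 and 275.16 in diestrus, a difference of -1.07 ± 0.30. Vein Col1a1 was 182.38, 97.68 and 162.23 FPKM in estrus against 224.46, 427.13 and 243.90 in diestrus, a difference of -1.0 ± 0.32, and the limma adjusted p was 0.412 for both genes. In both, estrus 2 was the lowest and diestrus 2 the highest library. The others without overlap were Col1a2, Col5a1, Col5a2, Col5a3, Col4a1, Col4a2, Col6a1, Col6a2, Col6a3, Col6a6 and Col14a1, between -0.39 and -0.92. Without estrus 2 the median was -0.45 with 28 of 29 lower, and without diestrus 2 it was -0.46 with 26 of 28 lower. The fibroblast markers (4 of 4 with a mean of at least 1 FPKM) summed to 485 to 780 FPKM in the estrus veins and 687 to 1181 in the diestrus veins, which overlap, and the endothelial markers (3 of 3) to 217 to 280 and 280 to 371, which do not. Their part in the collagen values was not tested.

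In muscle 18 of 20 collagens had a lower estimate in estrus (16 under quantile normalization), with a median of -0.38 against -0.08 for all genes. The phases did not overlap in 11, all lower (21.9% of all genes), and 11 had an unadjusted p under 0.05 (20.8%). Muscle Col6a1 was 21.24, 20.46 and 15.61 FPKM in estrus against 27.65, 26.64 and 31.96 in diestrus, a difference of -0.57 ± 0.13 with the lowest limma adjusted p among the collagens of any tissue, 0.101. Col1a2 had the largest difference, -0.81 ± 0.20, also without overlap. The fibroblast markers (4 of 4) summed to 119 to 236 FPKM in estrus and 237 to 277 in diestrus, and the tendon and fascia markers (4 of 4) to 11.6 to 36.4 and 43.6 to 118, without overlap in either list. The endothelial (3 of 3) and smooth muscle (4 of 4) markers were also lower in estrus without overlap, at 41.7 to 62.2 against 67.3 to 71.1 and 39.2 to 48.3 against 50.3 to 58.6. Their part in the collagen values was not tested.

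In duodenum 17 of 20 collagens had a lower estimate in estrus (15 under quantile normalization), with a median of -0.51 against -0.16 for all genes. The phases did not overlap in 7, all lower, where 22.1% of all genes were lower in this way, and 6 had an unadjusted p under 0.05 (13.5%). Duodenal Col6a3 was 2.33, 1.57 and 2.65 FPKM in estrus against 4.40, 4.10 and 4.06 in diestrus, a difference of -0.72 ± 0.21 (limma adjusted p = 0.368). Without duodenum estrus 1, the library with gastric markers, 18 of 19 were lower and the median was -0.76, and without estrus 2 it was -0.24. The proliferation markers (2 of 2) summed to 8.92 to 35.6 FPKM in estrus and 47.9 to 67.2 in diestrus. The B cell markers (2 of 2) summed to 41.1 to 319 and 16.9 to 33.5. The T cell markers (2 of 2) summed to 16.2 to 21.0 and 10.6 to 14.3, and none of these lists overlapped. The fibroblast markers (4 of 4) summed to 15.5 to 102 and 55.8 to 75.1. The smooth muscle markers (4 of 4) summed to 151 to 1628 and 336 to 415, with overlap in both lists. The part of all these markers in the collagen values was not tested.

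In uterus 26 of 30 collagens had a lower estimate in estrus, with a median of -0.77 against -0.07 for all genes, but the libraries varied so widely that the median half-width of the 95% intervals was 1.49. The phases did not overlap in 4 that were lower (4.67% of all genes) and 1 that was higher (3.24%), and 3 had an unadjusted p under 0.05 (3.74%). Uterine Col9a2 was 0.31, 1.48 and 4.04 FPKM in estrus against 19.18, 7.01 and 4.71 in diestrus, a difference of -1.94 ± 0.63. Col12a1 was 1.12, 2.57 and 1.0 FPKM in estrus against 3.75, 7.63 and 5.76 in diestrus (-1.40 ± 0.37). Col18a1 was 16.28, 18.48 and 8.35 FPKM in estrus against 27.93, 20.66 and 100.20 in diestrus, and its difference of -1.44 ± 0.61 was -0.77 without diestrus 3. Col28a1 was at -1.01 ± 0.50. For these 4 genes, which are the ones lower without overlap, the limma adjusted p was 0.897. Col28a1 entered through diestrus alone and could only be lower in estrus.

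The uterine median rested in part on estrus 3 and diestrus 3. Without estrus 3, the library with squamous markers, 23 of 28 collagens were lower and the median was -0.29, and without diestrus 3 it was -0.34. The 3 uterine markers, Hoxa10, Hoxa11 and Pgr, summed to 25.9 to 140 FPKM in estrus and 146 to 347 in diestrus, without overlap. The fibroblast markers (4 of 4) summed to 321 to 1648 and 500 to 853. The smooth muscle markers (4 of 4) summed to 923 to 4106 and 1058 to 2694, with overlap in both lists. The part of all these markers in the collagen values was not tested.

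In the aorta the direction of the collagens turned with a single library. All 6 libraries gave 15 of 25 higher in estrus and a median of 0.06, and without estrus 1, the library rich in smooth muscle markers, 23 of 25 were lower and the median was -0.35, against -0.10 for all genes. Aortic Col5a3 was 2.39, 4.04 and 3.49 FPKM in estrus against 11.87, 7.44 and 9.90 in diestrus (-1.32 ± 0.23, limma adjusted p = 0.933), 1 of 3 collagens lower without overlap (9.54% of all genes). The fibroblast markers (4 of 4) summed to 415 to 468 FPKM in estrus and 479 to 525 in diestrus, and the endothelial markers (3 of 3) to 144 to 191 and 231 to 249, without overlap in either list. Their part in the collagen values was not tested.

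WAT turned in the same way. With all libraries 18 of 21 collagens were higher in estrus (15 under quantile normalization) with a median of 0.34, and without estrus 1, the library with smooth muscle markers, 5 of 18 were higher and the median was -0.11. Col6a4 in WAT was 6.11, 0.18 and 0.31 FPKM in estrus against 0.04, 0.10 and 0.02 in diestrus (1.08 ± 0.64), the 1 collagen without overlap (9.25% of all genes were higher in this way). Col6a4 entered through estrus 1 alone, so it could be tested only as higher in estrus. The fibroblast markers (4 of 4) summed to 503 to 1749 FPKM in estrus and 337 to 385 in diestrus, and the smooth muscle markers (4 of 4) to 202 to 2409 and 88.8 to 141, without overlap in either list. Their part in the collagen values was not tested.

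Stomach Col11a2 was 1.75, 2.67 and 0.80 FPKM in estrus against 5.75, 14.53 and 12.31 in diestrus, a difference of -2.09 ± 0.40. Col9a3 was 1.66, 2.05 and 0.69 FPKM in estrus against 2.53, 8.10 and 4.73 in diestrus (-1.25 ± 0.40), and both had a limma adjusted p of 0.671. These 2 were the collagens lower without overlap there, where 12% of all genes were so. Col17a1 was at 2.18 ± 1.52, with overlapping phases, beside the squamous marker sums given above, whose part was not tested. With all libraries 16 of 27 stomach collagens were higher in estrus and the median was 0.09. Without estrus 1, 21 of 27 were lower and the median was -0.21. The smooth muscle markers (4 of 4) summed to 4559 FPKM in estrus 1 against 231 to 1614 in the other stomach libraries. Their part in the collagen values was not tested.

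In the remaining tissues the collagen of the smallest p was small in effect. In liver Col18a1 was higher in all 3 estrus libraries than in all 3 diestrus libraries, by 0.22 ± 0.07, the 1 collagen without overlap (4.48% of all genes). In cerebrum Col25a1 was 8.24, 8.02 and 10.96 FPKM in estrus against 6.08, 5.59 and 6.28 in diestrus (0.52 ± 0.12), 1 of 3 higher without overlap (4.92%), and in hypothalamus it was lower in all 3 estrus libraries (-0.12 ± 0.05), 1 of 2 lower (9.64%), with 1 higher (9.96%). Ovarian Col4a5 was 13.11, 12.94 and 12.58 FPKM in estrus against 8.70, 8.52 and 10.28 in diestrus (0.45 ± 0.10), 1 of 4 higher (8.13%), with 2 lower (5.58%) and 3 at an unadjusted p under 0.05 (5.96%).

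In kidney Col8a1 was at -0.41 ± 0.16, the 1 collagen lower without overlap (3.73%). In spleen Col4a1 was at 0.37 ± 0.17, in heart Col3a1 at 0.22 ± 0.09 and in BAT Col1a2 at -0.24 ± 0.17, and in these 3 tissues no collagen was without overlap, where 8.78%, 11.7% and 30.1% of all genes were. Spleen Col4a1 was highest, at 18.8 FPKM, in estrus 2, the library with pancreatic markers. Without BAT estrus 3 the Col1a2 difference was -0.11. Over the collagens of smallest p in these 8 tissues the limma adjusted p lay between 0.339 and 1.0.

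Whether the phase difference itself differed between tissues was tested by a limma F test over all 90 libraries. It gave 6 of 42 collagens an adjusted p of at most 0.05, where 4.27% of all genes were called. These were Col9a3 (0.000874), Col11a2 (0.00175), Col9a2 (0.00259), Col12a1 (0.0159), Col25a1 (0.0301) and Col22a1 (0.0431). In muscle, its tissue, Col22a1 was at 0.53 ± 0.28, and the largest differences of the others are given above. This test assumes 1 spread for all tissues, and in simulated data it made false calls among the genes given no such difference. With precision weights by tissue it called 0 of the collagens (0.237% of all genes). Without the libraries numbered 3 it called 1 and without those numbered 1 it called 2.

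The genes that build, bind and accompany collagens were followed in 4 lists, and limma called no member of any list between phases. The synthesis and processing list (30 genes) was led by P4hb at 223 FPKM, a subunit of prolyl 4-hydroxylase, and Ppib at 128, a prolyl isomerase, and 41 of its 353 tests had an unadjusted p under 0.05, where 7.84% of all tests did. Of the receptors (9, led by the integrin chain Itgb1 at 72.2 FPKM and the discoidin receptor Ddr1 at 21.6) 5 of 82 tests did. Of the fibril partners (8, led by Sparc at 336, a collagen-binding matricellular protein, and decorin, Dcn, at 207) it was 13 of 113, and of the other basement membrane genes (15, led by the laminin chain Lamb2 at 22.3 and the nidogen Nid1 at 22.2) it was 13 of 169.

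Muscle held many of these. There 16 of 23 synthesis genes tested had an unadjusted p under 0.05 with a lower estimate in estrus and 1 with a higher one, and all 8 fibril partners were lower at that p, where 18% of all genes were, with a median of -0.75. Muscle Sparc was 106.56, 97.31 and 92.97 FPKM in estrus against 190.15, 134.69 and 177.76 in diestrus, a difference of -0.74 ± 0.13 (limma adjusted p = 0.0920). In vein 9 of 28 synthesis genes, 5 of 12 other basement membrane genes and 0 of 8 fibril partners were lower at that p, where 8.63% of all genes were. Dcn and Lum are in the fibroblast marker list as well as among the fibril partners, and Fmod is in the tendon and fascia list.

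Between tissues, all 8 fibril partners were higher in vein (13% of all genes) and in aorta (9.03%) than in the mean of the other tissues. Of the 30 synthesis genes, 19 were higher in ovary (19.9%) and 15 lower in liver (31.7%). Of the 15 other basement membrane genes, 11 were higher in ovary (19.9%) and 9 in heart (8.72%), and 11 were lower in liver (31.7%).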

How the data were processed

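Values of 20414 genes in 90 libraries were taken as the authors deposited them and read as FPKM, since the table names no unit. Per the study's methods and the labels, the authors filtered reads with SOAPnuke, aligned them with Bowtie2 2.2.5 to GRCm38.p5 transcripts and quantified genes with RSEM 1.2.8. No counts were used here, so the number of fragments behind each library and the precision it gives are unknown. The smallest steps of FPKM over 924 short genes with 1 transcript were 185.782 times those of the median library in BAT estrus 3 and 0.885 to 1.65 times in the others. FPKM is scaled by library size, so a larger step goes with a shallower library. BAT estrus 3 was kept in the BAT means and the main BAT comparisons.

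Values were analysed as log2(FPKM + 1), a scale that understates the change of low genes, with limma 3.58.1 in R 4.3.3 (trended variance, Benjamini-Hochberg adjustment over all genes tested). Tables and figures were made with Python 3.11.15, pandas 2.3.3 and matplotlib 3.10.9. Genes were tested if their libraries averaged 1 FPKM or more in the comparison or, between 15 tissues, in some tissue. Calls needed an adjusted p of at most 0.05 and a log2 difference of at least 1. Phases were compared within each tissue, tissues with the mean of the other 14, and related tissues in 7 pairs. The fits were tested on simulated data.

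The members and lists were chosen with earlier results of these data known. Named genes were the 2 most abundant of each class, the 3 most abundant of each tissue, those called or without overlap at a log2 difference of at least 1 between phases (otherwise the smallest p), up to 3 called in each direction between tissues, those at least 5 times the next tissue, those with a tissue by phase effect, and the 2 most abundant of each list. Others are named beside their class, and their values had been seen. Alternatives were pseudocounts, filters, scalings, weights, the replicate number as a block and leaving out libraries. Precision weights by tissue and the removal of aorta estrus 1, WAT estrus 1, uterus estrus 3, duodenum estrus 1 or hypothalamus estrus 2 in the tissue contrasts were added after the data had been seen. In kidney against liver all 6 correlations of the deviations of same-numbered libraries were over 0.1, the limit used here to take numbers as pairing (0.111 to 0.276), and the block left 16 calls. No other comparison had every correlation over 0.1.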

Additional observations from a re-analysis of the deposited data

Results flagged for a closer look

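Of 45 sums of collagen classes in a tissue (6 libraries each), 10 had a library far from the other 5. The limit used is passed by about 1 in 20 sets of independent normal values. The classes of a tissue share libraries and the phases were pooled, so the 10 cannot be set against that rate. Aorta estrus 1 was the highest for fibrillar collagens, with 1192.3 FPKM against 312.86 to 519.44, for type IV and multiplexin collagens, with 701.47 against 191.19 to 308.56, and for the other collagens, with 392.4 against 137.1 to 205.88. WAT estrus 1 was the highest for fibrillar collagens, with 1066.45 against 206.47 to 295.21, and for the other collagens, with 499.24 against 120.09 to 236.08. Spleen estrus 2, the library with pancreatic markers, was the highest for type IV and multiplexin collagens, with 43.2 against 23.08 to 29.73. It was also the highest for the other collagens, with 54.54 against 34.79 to 37.63. Uterus diestrus 3 had 446.33 FPKM of type IV and multiplexin collagens against 42.88 to 190.5, cerebrum estrus 3 had 86.87 of the other collagens against 55.47 to 62.75, and hypothalamus diestrus 1 had the least fibrillar collagen, 21.34 against 30.13 to 35.16.

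The phase difference differed between tissues by limma's F test in 6 collagens, with adjusted p of 0.000874 for Col9a3, 0.00175 for Col11a2, 0.00259 for Col9a2, 0.0159 for Col12a1, 0.0301 for Col25a1 and 0.0431 for Col22a1. None of the 6 passed with precision weights by tissue.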

How the results depend on the processing

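No result changed direction with a call. Between phases, the 0 collagen calls became 12 with array weights and 14 in 1 fit of all 90 libraries, and stayed at 0 with each library left out. With a pseudocount of 0.1, which weighs low genes more, the calls against the other tissues were 24 in BAT (8 with 1), 19 in duodenum (11), 22 in heart (8), 25 in kidney (14), 37 in liver (19), 15 in muscle (7), 27 in spleen (10), 13 in stomach (5), 24 in uterus (15) and 25 in WAT (12). Quantile normalization gave 4 calls for heart minus muscle (7 without it). Leaving out libraries gave 5 to 8 calls in stomach, 15 to 20 in uterus, 10 to 15 for ovary minus uterus and 13 to 18 for duodenum minus stomach. The 6 collagens whose phase difference varied between tissues became 0 with precision weights by tissue, 1 with a pseudocount of 0.1, and 1 to 6 with libraries left out. With the replicate number as a block, the count was 12 in place of 11 for ovary minus uterus, 14 in place of 15 for duodenum minus stomach, and as before in the other comparisons, 0 between phases included. All 6 correlations of same-numbered libraries were above 0, though not all over 0.1, in ovary against uterus (0.0664 to 0.292) and hypothalamus against cerebrum (0.0187 to 0.221), and no label ties numbers to mice.

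Single genes lost a call with quantile normalization for Col27a1 in heart (-0.77) and WAT (-0.96) and Col16a1 in muscle (-0.56), and without the libraries numbered 2 for Col5a3 in ovary (-0.98). Differences of low genes near 1 FPKM are limited by 2 printed decimals and unknown numbers of fragments.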
